A study of Mus musculus with 6 samples.

Results

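The tumour necrosis factor (TNF) superfamily is a set of cell-surface and soluble ligands and the receptors that bind them, and its transcripts were measured here in the ear skin of mice that had lost the VEGF receptor gene Vegfr2 from endothelial cells. Members were taken by gene symbol, as every Tnfsf or Tnfrsf gene of the read count table plus Tnf, Lta, Ltb, Ltbr, Fas, Fasl, Cd27, Cd70, Cd40, Cd40lg, Eda, Edar, Eda2r and Ngfr, with at least 10 reads summed over the 6 libraries. The table held 44 such rows of 18422, and 41 of them were members, 14 ligands and 27 receptors. The lowest member was Tnfsf11, with 35 reads in all, while Tnfsf4 with 7, Cd40lg with 5 and Fasl with 3 fell below the limit. Cd70 was not analysed here. Of the 41 members, 38 were counted deeply enough to enter the test over 14866 genes, and Lta, Tnfsf11 and Tnfrsf17 were not.

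Tissue came from ecko mice, in which Vegfr2 (official symbol Kdr) was deleted from endothelium, and from littermate controls without the deletion. Each group had 3 libraries. Both groups had received tamoxifen, the drug that switches on the deletion, and both were 21 days old. The driver of the endothelial deletion, the strain, and which of the series' tamoxifen schedules (starting at postnatal day 1 or day 10) applied are not given in the sources used here. Libraries were made from poly(A) RNA of bulk ear skin, so fewer cells of a type and less RNA per cell cannot be told apart.

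The libraries held between 17255419 and 18054700 reads each. The deleted gene, Kdr, had 3.36, 2.05 and 2.35 CPM in ecko skin, against 27.4, 29.1 and 33.7 CPM in controls, and all ecko libraries lay below all controls. Markers of epidermis were abundant in all 6 libraries, with 7 basal keratinocyte genes summing to 10360.0 to 10913 CPM in ecko skin, against 9895 to 11267 CPM in controls. By their reads of 4 Y-linked genes, library 3 of each group was female and the other 4 libraries were male. Nothing in the labels ties a library to an animal number, so p-values measure the spread between these samples.

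Ligands of the superfamily assemble as trimers and are made mostly as membrane proteins, some of which are shed by proteases, and each binds one or a few receptors. Receptors with a death domain can engage caspases, while many others recruit TRAF adaptors and lead to activation of the transcription factor NF-kB. In skin the family is known for inflammation through TNF, for hair follicle formation through ectodysplasin and its receptor EDAR, and for costimulation of T cells.

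A single member passed the test over all genes. Tnfsf15, the ligand also called TL1A, rose in ecko skin, and no member fell, so 1 of 38 tested was higher and 0 were lower (edgeR quasi-likelihood test, adjusted p under 0.05). Of all 14866 genes, 1.76% passed the same test, 0.686% higher and 1.08% lower. The log2 fold changes of the 38 members ran from -0.49 to 1.53 with a median of 0.0037, where the median of all genes tested was -0.0018. Ecko and control values did not overlap for 7 members on the higher side and 2 on the lower side, which is 18.4% and 5.26% of those tested, against 10.2% and 10.8% of all genes. At an unadjusted edgeR p under 0.05 stood 6 members above and 1 below, while 7.41% and 7.95% of all genes did so.

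**Figure D1:**
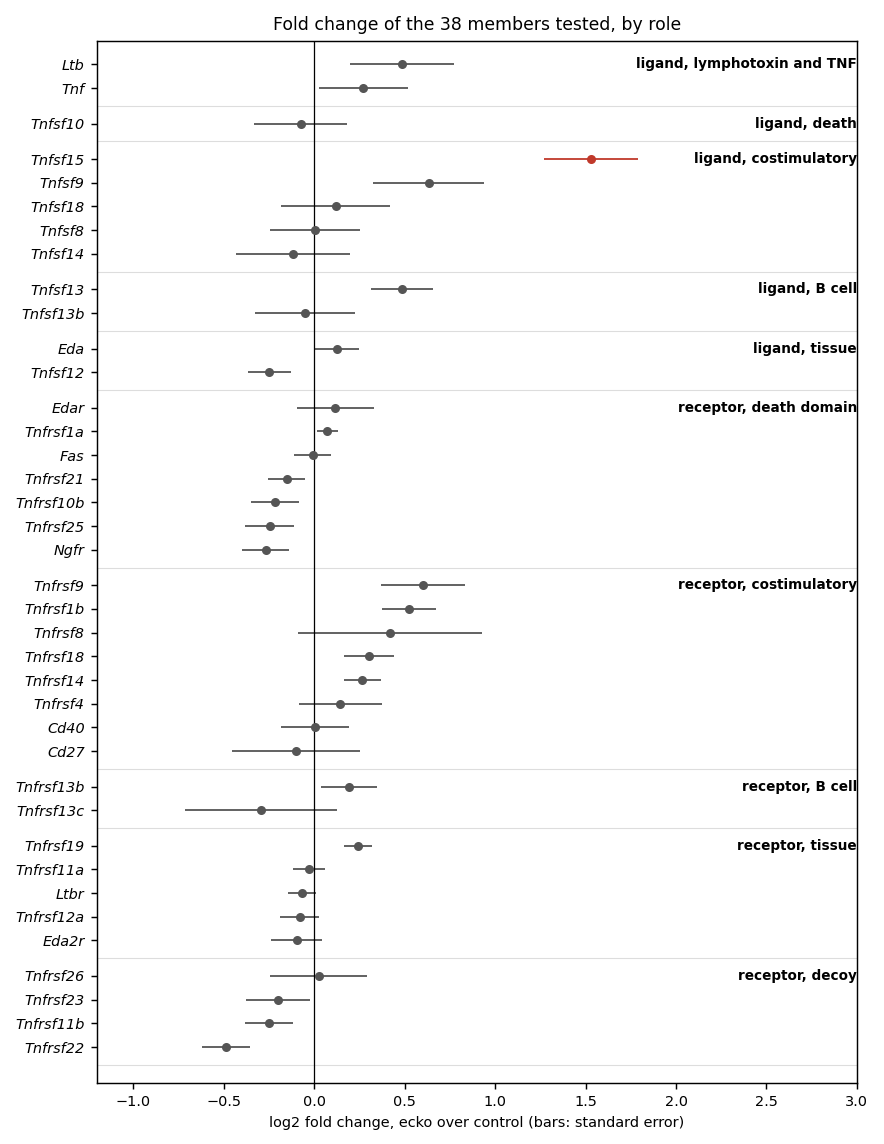
Log2 fold change of ecko over control (x axis) with its standard error for the 38 members tested, ordered by role. Tnfsf15, in red, lies at 1.53 and is the only one past the threshold, while the other 37 lie between -0.49 and 0.63.

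Tnfsf15 encodes a ligand that binds the death-domain receptor DR3, costimulates T cells and innate lymphoid cells, and is known from cell culture and mouse models as an inhibitor of endothelial growth. It had 90, 66 and 49 reads in the ecko libraries, against 23, 24 and 23 reads in the controls. Scaled to library size these were 5.21, 3.65 and 2.74 CPM in ecko skin, against 1.33, 1.37 and 1.304 CPM in controls, in the order of libraries 1 to 3. Every ecko library lay above every control, the controls spanned a narrow range, and the ecko libraries differed among themselves, with library 1 highest and the female library 3 lowest. Mean levels were 3.87 ± 1.25 CPM in ecko skin and 1.33 ± 0.0312 CPM in controls (SD, n = 3 each), which made ecko skin 2.90 times the control level (log2 fold change 1.53 with SE 0.26 and edgeR adjusted p = 0.0226). Among the 14866 genes tested it ranked 123 by p-value and 43 by log2 fold change, highest first. Of the genes called higher, 9 had a larger log2 fold change.

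The Tnfsf15 call was lost without ecko 1 (log2 fold change 1.26, edgeR adjusted p = 0.0649), without ecko 2 (log2 fold change 1.57, edgeR adjusted p = 0.0848), without control 1 (log2 fold change 1.53, edgeR adjusted p = 0.0607) and without control 2 (log2 fold change 1.55, edgeR adjusted p = 0.0709). In the 4 male libraries alone Tnfsf15 had a log2 fold change of 1.71 (edgeR adjusted p = 0.0408), and the single female ecko library had 2.74 CPM against 1.304 CPM in the female control.

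The stretch of 250 bases before the annotated start of Tnfsf15 is shown because it is the only member that passed, and that of Tnfrsf1b because DESeq2 called it. Sequences are from RefSeq on GRCm38.p6, written 5′ to 3′ on the gene's strand, and 34 of the 41 members had at least 1 start site in that table. The Tnfsf15 stretch is chr4:63745060-63745309 and that of Tnfrsf1b chr4:145246871-145247120, both on the minus strand. Capitals mark a match to any of the 4 motifs searched.
Tnfsf15: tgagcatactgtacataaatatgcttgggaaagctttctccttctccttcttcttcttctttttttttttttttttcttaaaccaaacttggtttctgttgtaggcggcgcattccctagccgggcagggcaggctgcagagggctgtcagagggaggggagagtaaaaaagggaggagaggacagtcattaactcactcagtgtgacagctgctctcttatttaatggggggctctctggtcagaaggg
Tnfrsf1b: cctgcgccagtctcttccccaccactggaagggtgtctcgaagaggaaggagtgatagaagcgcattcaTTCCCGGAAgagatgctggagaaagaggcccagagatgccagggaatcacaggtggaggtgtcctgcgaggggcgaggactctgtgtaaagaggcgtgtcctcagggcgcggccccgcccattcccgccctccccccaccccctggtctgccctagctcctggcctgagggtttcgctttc

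The motifs searched on both strands were the NF-kB consensus, the AP-1 site TGANTCA, the hypoxia response core ACGTG and the STAT site TTCNNNGAA, and matches of different motifs were allowed to overlap. The Tnfsf15 stretch held none of the 4, and the Tnfrsf1b stretch held 1 STAT match. Of 32851 promoter stretches of the same length, 7.25% held the NF-kB consensus, 6.75% the AP-1 site, 16.6% the hypoxia response core and 7.02% the STAT site. Of the 38 stretches of members, 4, 6, 9 and 8 did so in that order. Those with the NF-kB consensus belonged to Ltb, a known NF-kB target, and to Tnfrsf25, Tnfrsf8 and Tnfrsf9. The Tnf stretch held none of the 4 motifs.

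Tnfrsf25, which encodes the receptor DR3 for Tnfsf15, did not pass. It had 4.98, 4.98 and 4.58 CPM in ecko skin, against 6.52, 5.41 and 5.33 CPM in controls (log2 fold change -0.25 with SE 0.14 and edgeR adjusted p = 0.430). All 3 ecko libraries lay below the lowest control, by a margin smaller than the spread of the controls. Counted per kilobase of exon, the Tnfsf15 level was 0.712, 0.499 and 0.407 of the Tnfrsf25 level in ecko skin, against 0.138, 0.172 and 0.166 in controls. The ligand was below its receptor in every library. The ratio was higher in all 3 ecko libraries than in any control, which follows from the values of the separate genes and adds no further result.

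Tnfsf15 lies on chromosome 4, from 63724600 to 63745059 in GRCm38.p6, and its nearest relative along the chromosome is Tnfsf8, the gene of the ligand of the activation receptor CD30, 86143 bases away. Tnfsf8 had 1.68, 1.11 and 1.45 CPM in ecko skin, against 1.21, 1.54 and 1.47 CPM in controls, with overlapping groups (log2 fold change 0.0026, SE 0.25). The difference between the neighbours was not tested.

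**Figure D2:**
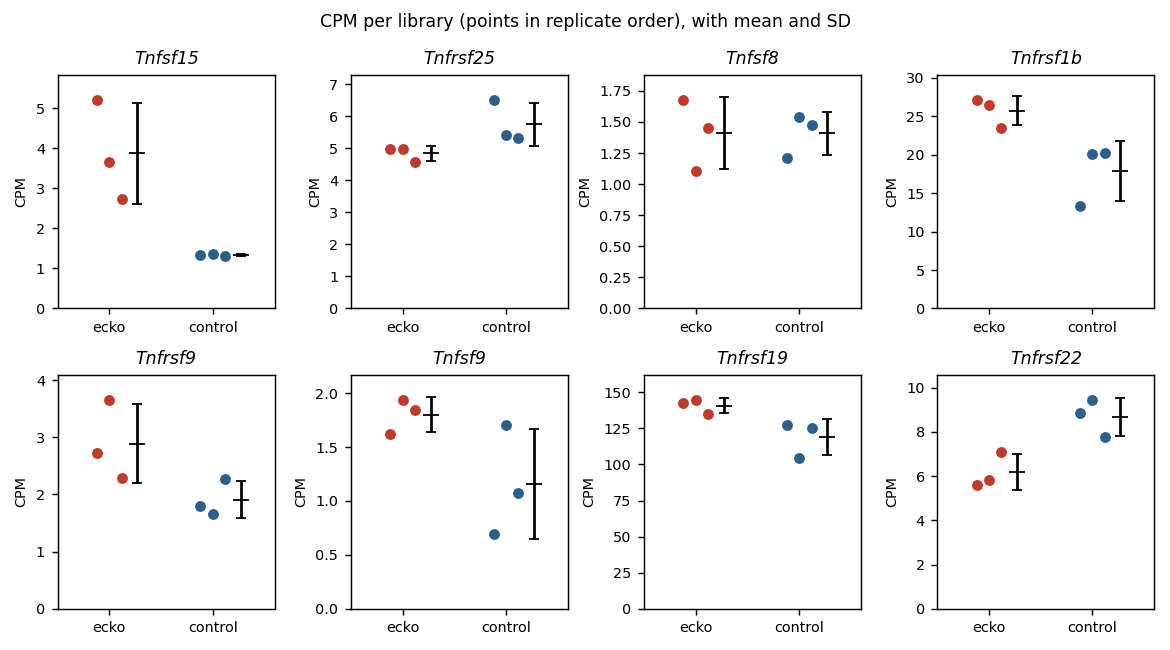
CPM in each library (y axis from 0) of 8 members, with ecko libraries in red and controls in blue, and the mean and SD of each group beside the points. Tnfsf15 separates the groups, with 2.74 to 5.21 CPM in ecko skin and 1.304 to 1.37 CPM in controls, while Tnfsf8 and Tnfsf9 overlap. Tnfrsf25, Tnfrsf1b, Tnfrsf9, Tnfrsf19 and Tnfrsf22 also separate the groups but did not pass the main test.

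The remaining ligands gave log2 fold changes between -0.25 and 0.63, and none passed. Tnf itself, the inflammatory cytokine for which the family is named, had 3.71, 4.26 and 2.91 CPM in ecko skin, against 2.08, 2.96 and 3.97 CPM in controls. The groups overlapped, and control 3 lay above ecko 1 and ecko 3 (log2 fold change 0.27 with SE 0.25 and edgeR adjusted p = 0.674). Ltb, which encodes the membrane partner in the lymphotoxin heterotrimer, had 2.09, 1.72 and 1.17 CPM in ecko skin, against 0.981, 1.08 and 1.47 CPM in controls, where ecko 3 lay below control 3 (log2 fold change 0.49 with SE 0.29 and edgeR adjusted p = 0.467). Lta, which encodes the soluble lymphotoxin, had 4 to 12 reads per library and was not tested.

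Among the other ligands that costimulate lymphocytes, Tnfsf9 had the highest control level per kilobase of exon. Its values were 1.62, 1.94 and 1.85 CPM in ecko skin, against 0.693, 1.71 and 1.08 CPM in controls. Control 2 lay above ecko 1, so the groups overlapped (log2 fold change 0.63 with SE 0.31 and edgeR adjusted p = 0.367). Tnfsf14, the gene of LIGHT, which binds HVEM and the lymphotoxin beta receptor, had a log2 fold change of -0.12 (SE 0.31, edgeR adjusted p = 0.908), and Tnfsf18, the gene of the GITR ligand, 0.12 (SE 0.30, edgeR adjusted p = 0.901). Both had 11 to 25 reads in each library, so only large changes could be seen at this depth. Tnfsf10 encodes the death ligand TRAIL and had 7.88, 5.04 and 3.91 CPM in ecko skin, against 4.91, 5.18 and 7.60 CPM in controls, and all controls lay within the range of the ecko libraries (log2 fold change -0.075 with SE 0.26 and edgeR adjusted p = 0.928).

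Tnfsf13 and Tnfsf13b encode ligands that keep B cells and plasma cells alive. Tnfsf13, the gene of APRIL, had 5.45, 5.76 and 4.31 CPM in ecko skin, against 3.23, 4.27 and 3.57 CPM in controls. All ecko libraries lay above all controls, although ecko 3 and control 2 nearly met (log2 fold change 0.48 with SE 0.17 and edgeR adjusted p = 0.214). Tnfsf13b, the gene of BAFF, had 13 to 17 reads per library in overlapping groups (log2 fold change -0.050, SE 0.28). Exons of Tnfsf13 overlap those of the read-through gene Tnfsfm13 and of an antisense gene, and exons of Tnfsf12 overlap Tnfsfm13, so the split of reads between them is uncertain. Tnfsfm13 had 5.21, 4.76 and 7.55 CPM in ecko skin, against 7.45, 7.68 and 6.75 CPM in controls (log2 fold change -0.32, SE 0.17, edgeR adjusted p = 0.423).

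Tnfsf12, the gene of TWEAK, a ligand of tissue repair, was the highest ligand per kilobase of exon. It had 14.4, 15.2 and 13.1 CPM in ecko skin, against 14.3, 17.4 and 19.0 CPM in controls, and ecko 1 and ecko 2 lay above control 1 (log2 fold change -0.25 with SE 0.12 and edgeR adjusted p = 0.367). Its receptor gene Tnfrsf12a, which encodes Fn14, had 22.4, 22.4 and 21.1 CPM in ecko skin, against 20.0, 26.9 and 22.7 CPM in controls, and the groups overlapped (log2 fold change -0.082 with SE 0.11 and edgeR adjusted p = 0.791). Eda, which encodes ectodysplasin, had a log2 fold change of 0.12 (SE 0.12, edgeR adjusted p = 0.696) with 18.8 to 20.6 CPM in ecko skin and 14.8 to 20.2 CPM in controls. Its receptor genes Edar and Eda2r had 0.11 (SE 0.21) and -0.098 (SE 0.14). Tnfsf11, which encodes the osteoclast factor RANKL, had 4 to 8 reads per library.

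None of the 26 receptors tested passed, and the 5 members with the highest control level per kilobase of exon were receptors. The highest was Tnfrsf1a, which encodes the main death-domain receptor of TNF, at 74.9 ± 4.42 in ecko skin and 71.2 ± 1.47 in controls CPM per kilobase (SD, n = 3 each). Ltbr, the lymphotoxin beta receptor gene, followed in controls with 29.3 ± 2.75 in ecko skin and 30.8 ± 1.05 in controls, and Tnfrsf19, which encodes the orphan receptor TROY known from hair follicle stem cells, with 29.7 ± 1.04 in ecko skin and 25.1 ± 2.66 in controls. The order of Ltbr and Tnfrsf19 differed by less than the spread between libraries in ecko skin. Next came Tnfrsf21, the gene of death receptor DR6, at 13.5 ± 0.524 in ecko skin and 15.03 ± 2.26 in controls, and Tnfrsf12a at 11.4 ± 0.383 in ecko skin and 12.0 ± 1.78 in controls. At the other end stood Tnfsf13b, at 0.120 ± 0.0127 in ecko skin and 0.125 ± 0.0158 in controls. Tnfsf15 was 34th of the 41 in controls, with 1.16 ± 0.374 in ecko skin and 0.398 ± 0.00932 in controls.

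**Figure D3:**
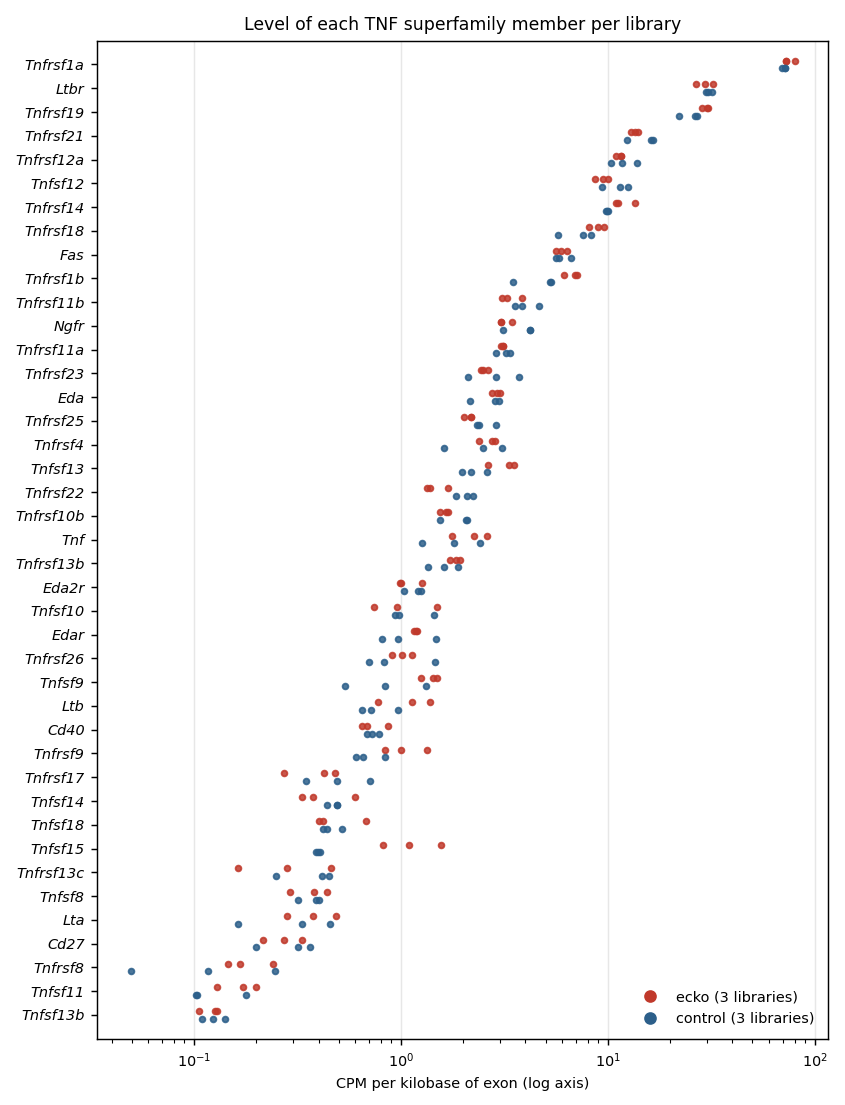
CPM per kilobase of exon (log axis) of the 41 members in each library, ordered by the control mean, with ecko in red above control in blue. Tnfrsf1a is highest at 71.2 in controls, and the red points of Tnfsf15, 34th in that order, lie to the right of its blue points.

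Tnfrsf1b, which encodes the second TNF receptor, found mostly on leukocytes and endothelium, was the costimulatory receptor with the smallest p. It had 27.2, 26.5 and 23.5 CPM in ecko skin, against 13.3, 20.1 and 20.2 CPM in controls. All ecko libraries lay above all controls, and control 1 was the lowest of the 6. The difference did not pass in the main test (log2 fold change 0.52 with SE 0.15 and edgeR adjusted p = 0.136), although DESeq2 called it (log2 fold change 0.53, DESeq2 adjusted p = 0.0268). Without control 1 the log2 fold change was 0.36 (edgeR adjusted p = 0.135). Macrophage markers were likewise lowest in control 1, with 8 genes summing to 734, 725 and 738 CPM in ecko skin, against 435, 724 and 653 CPM in controls, and 5 pan-leukocyte genes summed to 327, 320.5 and 312 CPM in ecko skin, against 219, 293 and 290.0 CPM in controls. None of these genes passed the test, and the part of these cells in the Tnfrsf1b values was not tested.

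Receptors classed as costimulatory mostly had log2 fold changes above 0, 7 of 8 with Tnfrsf1b and Cd40 counted, where 7362 of 14866 genes did. Their median log2 fold change was 0.28, and none passed. Of the 7, Cd40 stood at 0.0048, and Cd40 and Tnfrsf4 changed sign in some settings. Tnfrsf9, which encodes the activation receptor CD137, had 2.72, 3.65 and 2.29 CPM in ecko skin, against 1.79, 1.65 and 2.27 CPM in controls. The lowest ecko library lay only just above the highest control (log2 fold change 0.60 with SE 0.23 and edgeR adjusted p = 0.258). Tnfrsf14, the gene of HVEM, which is also made by epithelium, had 19.5, 15.8 and 16.1 CPM in ecko skin, against 14.1, 14.4 and 14.3 CPM in controls. Its controls were tight and all ecko libraries lay above them, ecko 1 farthest (log2 fold change 0.27 with SE 0.10 and edgeR adjusted p = 0.263).

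Tnfrsf18, the gene of GITR, an activation receptor of regulatory T cells, had 14.7, 13.7 and 12.3 CPM in ecko skin, against 12.6, 8.76 and 11.5 CPM in controls, where ecko 3 lay below control 1 (log2 fold change 0.30 with SE 0.14 and edgeR adjusted p = 0.338). Its neighbour Tnfrsf4, which encodes OX40, had a log2 fold change of 0.14 (SE 0.23, edgeR adjusted p = 0.823) in overlapping groups, and Tnfrsf8, which encodes CD30, had 3 to 15 reads per library. Cd40, the receptor gene through which T cells activate dendritic and B cells, stood at 0.0048 (SE 0.19, edgeR adjusted p = 0.993) and Cd27 at -0.10 (SE 0.35, edgeR adjusted p = 0.930). Foxp3, the defining gene of regulatory T cells, had 2.49, 1.88 and 2.24 CPM in ecko skin, against 1.21, 0.740 and 0.907 CPM in controls and rose (log2 fold change 1.20 with SE 0.25 and edgeR adjusted p = 0.0496). The Foxp3 call was lost whichever library was left out, at edgeR adjusted p = 0.179, 0.116, 0.159, 0.0594, 0.147 and 0.0809 without ecko 1, ecko 2, ecko 3, control 1, control 2 and control 3, and in male libraries alone (edgeR adjusted p = 0.200). It was also lost with DESeq2 (adjusted p = 0.0682), limma-voom (adjusted p = 0.0539), upper-quartile factors, no filter beyond the total count, the replicate block and the sex term (edgeR adjusted p = 0.0531, 0.0539, 0.0652 and 0.0665). The 5 regulatory T cell genes, of which Foxp3 was the only call, summed to 31.7 to 35.2 CPM in ecko skin, against 25.8 to 33.0 CPM in controls, and overlapped. Most of that sum was Ikzf2, with 21.6, 26.8 and 25.6 CPM in ecko skin, against 26.1, 20.2 and 26.1 CPM in controls. Il2ra had 4.29, 3.49 and 3.75 CPM in ecko skin, against 2.42, 3.02 and 3.01 CPM in controls. Its groups did not overlap (edgeR adjusted p = 0.257), while those of Ctla4 and Ccr8 did. The 8 T cell genes summed to 39.6 to 42.9 CPM in ecko skin, against 37.8 to 43.4 CPM in controls. The part of these cells in the receptor values was not tested.

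Receptors of B cell survival ligands were low. Tnfrsf13b, the gene of TACI, had 4.92, 5.26 and 5.48 CPM in ecko skin, against 4.56, 3.81 and 5.33 CPM in controls, with overlap between groups (log2 fold change 0.19 with SE 0.15 and edgeR adjusted p = 0.621). Tnfrsf13c, the gene of the BAFF receptor, had 6 to 17 reads per library, and Tnfrsf17, which encodes BCMA of plasma cells, had 4 to 10 and was not tested. The 7 B and plasma cell markers summed to 1.49 to 2.14 CPM in ecko skin, against 1.44 to 1.93 CPM in controls, and Cd79a, Ms4a1 and Pax5 had 0 to 5 reads in each library, while Cd79b had 4 to 20.

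Death-domain receptors other than Tnfrsf25 also showed no call. Tnfrsf1a had 207, 188 and 187 CPM in ecko skin, against 187, 180.1 and 187 CPM in controls. Ecko 1 was the highest, and the other ecko libraries lay less than 1 CPM above the highest control (log2 fold change 0.073 with SE 0.061 and edgeR adjusted p = 0.642). Fas, which triggers apoptosis on binding Fas ligand, had a log2 fold change of -0.0089 (SE 0.10, edgeR adjusted p = 0.982), with 11.6 to 13.2 CPM in ecko skin and 11.6 to 13.7 CPM in controls. Tnfrsf10b, the gene of the mouse TRAIL receptor, had -0.22 (SE 0.13, edgeR adjusted p = 0.478) and Tnfrsf21 -0.15 (SE 0.10, edgeR adjusted p = 0.535). Ngfr, which encodes the low-affinity neurotrophin receptor of nerves and Schwann cells, had 11.8, 10.5 and 10.5 CPM in ecko skin, against 14.4, 10.7 and 14.5 CPM in controls, in which control 2 lay below ecko 1 (log2 fold change -0.27 with SE 0.13 and edgeR adjusted p = 0.367). The 7 Schwann cell markers overlapped too, summing to 892 to 974 CPM in ecko skin, against 896 to 1000.2 CPM in controls.

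Decoy receptors bind ligands without signalling. Tnfrsf22, which encodes a mouse decoy receptor for TRAIL, had the lowest log2 fold change of the family. It had 5.62, 5.81 and 7.10 CPM in ecko skin, against 8.83, 9.45 and 7.77 CPM in controls. All ecko libraries lay below all controls, yet the difference did not pass (log2 fold change -0.49 with SE 0.13 and edgeR adjusted p = 0.122). Tnfrsf23, a second decoy gene for TRAIL, and Tnfrsf26, a related gene beside them on chromosome 7, had -0.20 (SE 0.18) and 0.024 (SE 0.27). These 3 genes are similar in sequence and the counts of Tnfrsf22 and Tnfrsf23 were not whole numbers, so the division of reads between them is uncertain. Exons of Tnfrsf23 and Tnfrsf26, of Tnfrsf18 and of Tnfsf9 also overlap genes on the opposite strand, whose reads could not be told apart from theirs. Tnfrsf11b, which encodes osteoprotegerin, the secreted decoy of RANKL, had 8.63, 9.19 and 10.8 CPM in ecko skin, against 10.8, 10.1 and 13.2 CPM in controls, where ecko 3 lay above control 2 (log2 fold change -0.25 with SE 0.13 and edgeR adjusted p = 0.414).

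Among receptors of tissue cells, Tnfrsf19 had 142, 145 and 135 CPM in ecko skin, against 127, 104 and 125 CPM in controls. All ecko libraries lay above all controls (log2 fold change 0.24 with SE 0.078 and edgeR adjusted p = 0.187). Ltbr had 75.5, 69.1 and 62.6 CPM in ecko skin, against 70.1, 72.1 and 75.0 CPM in controls, with ecko 1 the highest of the 6 and ecko 3 the lowest (log2 fold change -0.068 with SE 0.075 and edgeR adjusted p = 0.736). Tnfrsf11a, which encodes RANK, had a log2 fold change of -0.030 (SE 0.089, edgeR adjusted p = 0.916). The 7 hair follicle markers spanned 117 to 119 CPM in ecko skin, against 114 to 127 CPM in controls. Most of that sum was Sox9, which also belongs to a list of cartilage genes, at 71.2 to 77.1 CPM in ecko skin and 70.6 to 87.2 CPM in controls. Krt71 varied widely, with 2.18 to 6.72 CPM in ecko skin and 1.33 to 8.68 CPM in controls. Lgr5 had 13.6 to 16.5 CPM in ecko skin and 13.0 to 15.9 CPM in controls.

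Genes that carry the signal onward were read from 7 lists of 74 genes in the table, of which 67 were tested. Of these 2 rose and 0 fell, against 0.686% and 1.08% of all genes, and their median log2 fold change was 0.035. Rel, which encodes the c-Rel subunit of NF-kB, had 47.2, 50.0 and 49.1 CPM in ecko skin, against 36.7, 37.8 and 41.8 CPM in controls. The groups did not overlap (log2 fold change 0.33 with SE 0.068 and edgeR adjusted p = 0.0452). Without ecko 1, ecko 2, ecko 3, control 1 or control 2 the Rel call was lost, at edgeR adjusted p = 0.138, 0.211, 0.139, 0.115 and 0.141.

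Ccl20, a chemokine gene that keratinocytes switch on in response to TNF and other inflammatory cues, was the other. It had 8.98, 10.0 and 6.09 CPM in ecko skin, against 3.002, 4.72 and 4.03 CPM in controls, with every ecko library above every control (log2 fold change 1.09 with SE 0.22 and edgeR adjusted p = 0.0384). Its call was lost without ecko 1, ecko 2, control 1, control 2 or control 3, at edgeR adjusted p = 0.151, 0.154, 0.0889, 0.0613 and 0.0589. The list of 15 TNF-responsive genes, 11 tested, had 9 values above 0 and a median of 0.25, where 7362 of all 14866 genes were above 0. The 2 below 0 were Sele at -0.32 (SE 0.18, edgeR adjusted p = 0.454) and Sod2 at -0.074 (SE 0.076, edgeR adjusted p = 0.716). For Sele all ecko libraries lay below all controls. Ccl5, a chemokine of T cells, had the highest log2 fold change of the 11 tested at a very low level, with 1.45, 0.996 and 1.118 CPM in ecko skin, against 0.577, 0.626 and 0.284 CPM in controls (log2 fold change 1.25 with SE 0.35 and edgeR adjusted p = 0.130).

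Of the 17 kinases, subunits and brakes of NF-kB, Rel was the only call. Tnfaip3, which encodes the feedback inhibitor A20, had 33.0, 28.3 and 27.1 CPM in ecko skin, against 17.7, 25.7 and 25.01 CPM in controls (log2 fold change 0.37 with SE 0.14 and edgeR adjusted p = 0.249). None of the 6 TRAF adaptor genes passed, with Traf4 at -0.33 (SE 0.13, edgeR adjusted p = 0.260) and Traf1, itself a target of NF-kB, at 0.34 (SE 0.14, edgeR adjusted p = 0.277). None of 15 death signalling genes did either, Birc3, which encodes an inhibitor of cell death, standing at 0.25 (SE 0.077, edgeR adjusted p = 0.161) and Mlkl, the executor of necroptosis, at 0.45 (SE 0.18, edgeR adjusted p = 0.262). The 5 proteases and cofactors that shed TNF ligands lay between -0.10 and 0.035, among them Adam17, the main TNF-releasing enzyme, at 0.035 (SE 0.064, edgeR adjusted p = 0.846) and its cofactor gene Rhbdf1 at -0.10 (SE 0.064, edgeR adjusted p = 0.513).

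The ectodysplasin pathway list gave no call among 4 genes tested, with Bmp7 at 0.092 (SE 0.085) and Lef1 at -0.11 (SE 0.15). Of 9 neurotrophin genes none passed. Ntf3, which encodes a neurotrophin, had a log2 fold change of 0.26 (SE 0.15, edgeR adjusted p = 0.454).

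**Figure D4:**
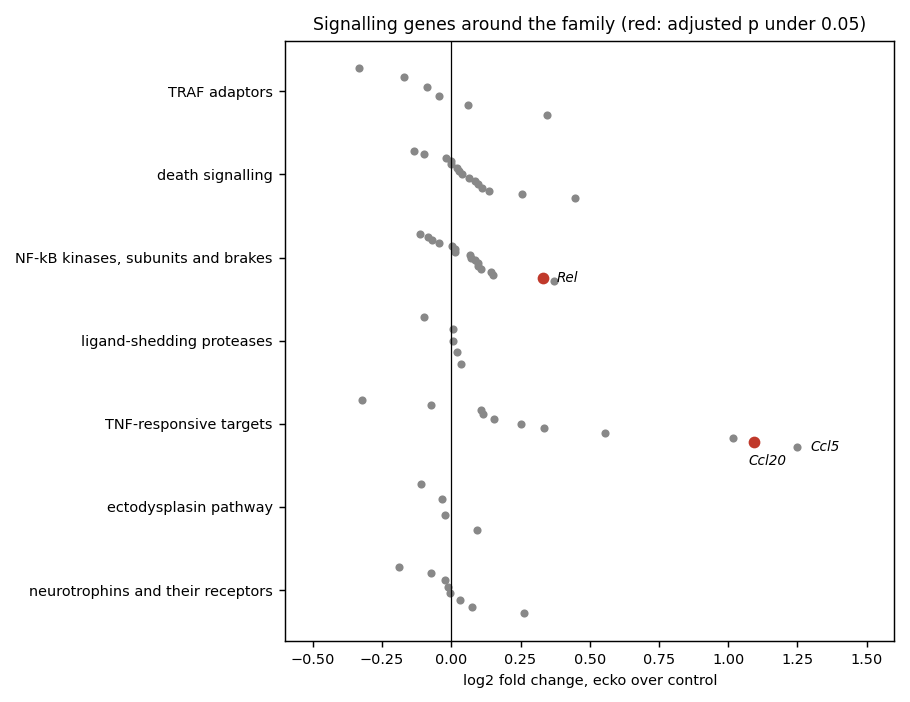
Log2 fold change of ecko over control (x axis) of tested genes of the 7 signalling lists (rows), with genes past the threshold in red. Rel at 0.33 and Ccl20 at 1.09 are the 2 red points, and Ccl5 at 1.25 lies farther right without passing.

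Sums of several cell type marker lists differed between the groups. The 10 endothelial genes summed to 223 to 228 CPM in ecko skin, against 352 to 399 CPM in controls, and 9 of them fell. The 7 lymphatic endothelial genes summed to 227 to 246 CPM in ecko skin, against 308 to 382 CPM in controls, with 4 that fell. Mural cell, adipocyte and skeletal muscle sums were likewise lower in every ecko library than in every control. Of 8 stressed keratinocyte genes 2 rose, and the 8 summed to 773, 806 and 543 CPM in ecko skin, against 506, 488 and 537 CPM in controls. The sum of the female ecko 3 was thus nearly at the control level, and its largest part was Krt17, at 292 CPM against 281 to 323 CPM in controls. The 2 that rose lay above all controls in ecko 3 too, Il1f6 at 33.7 CPM against 14.6 to 16.4 CPM and Sprr1b at 8.44 CPM against 3.76 to 5.72 CPM. Krt6b, Krt16, Krt17 and S100a8 in ecko 3 did not. S100a8 belongs to this list and to that of neutrophils.

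Neutrophil markers had the widest spread, at 101, 169 and 29.6 CPM in ecko skin, against 30.4, 22.4 and 39.0 CPM in controls. Of that list Elane had 0 reads in all libraries and Ly6g and Mpo 0 in all but ecko 3, so the sum came from S100a8 and S100a9, which keratinocytes also make, and from Cxcr2 and Csf3r. Dendritic and Langerhans cell genes overlapped between groups, at 358 to 411 CPM in ecko skin, against 334 to 389 CPM in controls, as did mast cell genes at 536 to 607 CPM in ecko skin, against 446 to 564 CPM in controls and NK cell genes at 8.25 to 10.9 CPM in ecko skin, against 7.62 to 9.16 CPM in controls. The 7 differentiated keratinocyte genes, of which Krt1 and Casp14 rose, summed to 23290.0, 20659 and 20972 CPM in ecko skin, against 18549, 18040.0 and 19945 CPM in controls. The part of these cell types in the Tnfsf15 rise was not tested.

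**Figure D5:**
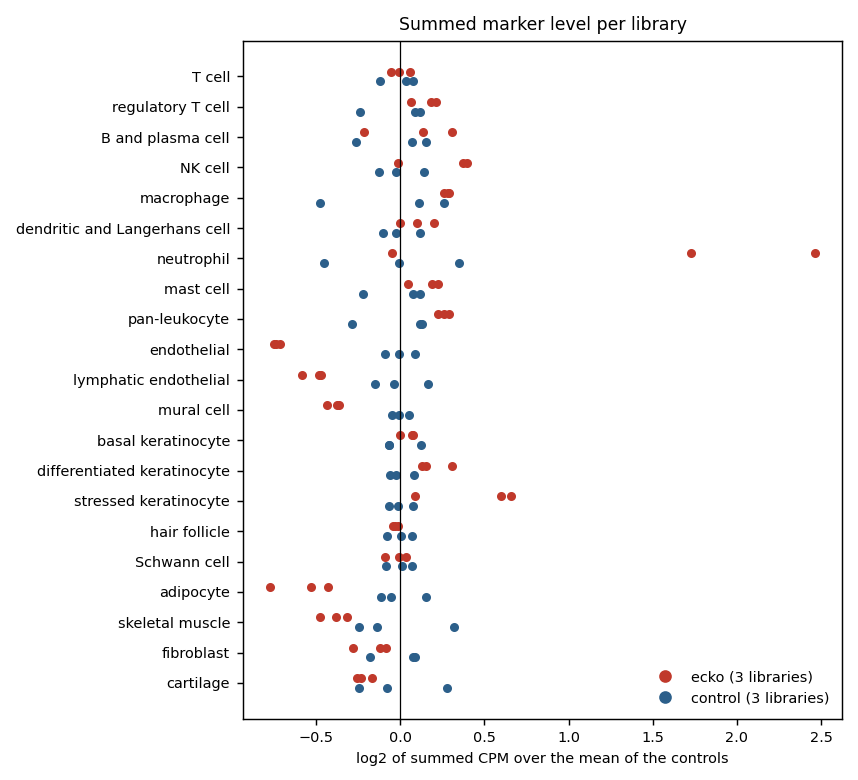
Log2 of the summed CPM of each marker list in each library over the mean of the controls (x axis), with ecko in red above control in blue. Endothelial, lymphatic endothelial, mural, adipocyte and skeletal muscle sums lie to the left of all controls in all 3 ecko libraries. Skeletal muscle had 5294 to 5916 CPM in ecko skin, against 6218 to 9190 CPM in controls. Macrophage, pan-leukocyte, stressed keratinocyte and differentiated keratinocyte sums lie to the right of all controls. For macrophages the lowest ecko sum was 724.58 CPM and the highest control 723.72 CPM.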

How the data were processed

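Poly(A) RNA of ear skin was sequenced in 3 ecko and 3 control libraries, per the labels' protocols. The values deposited by the authors are unscaled expected counts per gene, of which 10.5% held a fractional part. Tools listed in the submitters' processing notes are RSEM 1.3.1, HISAT2 2.2.1 and Bowtie2 2.4.5, with the build GRCm38.p6 and no roles given. The labels name no step that marks strand, so antisense reads could not be told apart.

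Counts were rounded to whole numbers, filtered with filterByExpr (minimum count 10, 14866 genes kept, 3556 removed) and scaled by TMM. The test was edgeR's quasi-likelihood test (edgeR 4.0.16, R 4.3.3) on genotype alone, with Benjamini-Hochberg adjustment over all genes and a threshold of 0.05. It was checked on 5 simulated sets with 200 changed genes each. Of log2 changes of 0.5, 1 and 2 it recovered 61.8%, 94.6% and 99.7%, and 5.94% of its calls were false. Changed genes were drawn only from those above a minimum mean level, so the lowest members were not covered. The standard error is the log2 fold change divided by the square root of F. CPM used TMM-scaled totals, and CPM per kilobase used merged exon lengths of GENCODE M21 on GRCm38. All 41 members matched RefSeq by Entrez identifier. Libraries of 1 group were not duplicates (chi-square over its degrees of freedom, 4.89 to 14.8). A library with at least 500 Y-linked reads was taken as male.

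The members and lists were chosen with earlier results of these data known. Every member could be named, with values in each library for members that passed, for the 10 with the smallest p and for the highest of each role. Named pathway genes were those that passed or the 2 with the smallest p of a list. Values of 1 of these genes are not reported here. Tnfaip3, Ccl5, Foxp3, Krt1, Casp14, Relt, Tnfsfm13 and the other marker genes given with values were chosen after their values were seen. The alternatives tried were DESeq2 1.42.0, limma-voom (limma 3.58.1), upper-quartile and RLE factors, other filters, a sex term, male libraries alone, a block on replicate number, a threshold of 0.1 and each library left out.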

Additional observations from a re-analysis of the deposited data

How the results depend on the processing

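Tnfsf15 was higher under all 16 alternatives, with log2 fold changes of 1.26 to 1.73, and passed in 12 of them. It failed only where 1 library was left out. No member was called lower under any alternative. The count of members called higher was 1, and 2 with DESeq2, which added Tnfrsf1b, and ran from 0 to 1 with single libraries left out. Over all genes, 195 rose with DESeq2, 182 at a threshold of 0.1 and 63 with the replicate block, and 269 and 91 fell at a threshold of 0.1 and in male libraries alone. With single libraries left out 22 to 165 rose and 34 to 242 fell. Pathway genes called higher numbered 4 with DESeq2, 0 with limma-voom and in male libraries alone, 1 with the replicate block and with upper-quartile factors, 3 with the sex term, and 0 to 1 with single libraries left out.

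The labels give no pairing by replicate number. Deviations of same-numbered libraries correlated at 0.0530, 0.0479 and 0.172, and not every library correlated best with its own number. Library 3 of each group was female, and ecko 3 correlated at -0.0946 and -0.102 with controls 1 and 2. A block on replicate number therefore also carried sex. With the replicate block Tnfsf15 kept its call (log2 fold change 1.504, edgeR adjusted p = 0.0314). Rel lost its call with upper-quartile factors, limma-voom, the replicate block and male libraries alone (adjusted p = 0.0532, 0.0518, 0.0630 and 0.0695 by edgeR or limma), and Ccl20 with limma-voom and male libraries alone (adjusted p = 0.0593 and 0.0503).

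Some members that did not pass changed sign between settings, and none of them was called in any. In male libraries alone the log2 fold changes were Tnfsf13b 0.029, Tnfsf14 0.072, Tnfsf18 -0.065, Tnfsf10 0.35, Cd27 0.23, Tnfrsf4 -0.098, Fas 0.11, Tnfrsf26 -0.017, Eda2r 0.0100, Ltbr 0.024, Tnfrsf11a 0.011. With upper-quartile factors the log2 fold changes were Tnfsf8 -0.013, Cd40 -0.012. With limma-voom the log2 fold changes were Tnfsf8 -0.012, Cd40 -0.0054. With the replicate block the log2 fold changes were Tnfsf8 -0.0021. With single libraries left out these genes ranged as follows on the log2 scale, Tnfsf13b -0.13 to 0.046, Tnfsf14 -0.42 to 0.045, Tnfsf18 -0.16 to 0.25, Tnfsf8 -0.14 to 0.15, Tnfsf10 -0.40 to 0.15, Tnfrsf13c -0.73 to 0.0015, Cd27 -0.31 to 0.086, Cd40 -0.13 to 0.086, Tnfrsf4 -0.073 to 0.37, Edar -0.054 to 0.40, Fas -0.058 to 0.066, Tnfrsf23 -0.38 to 0.015, Tnfrsf26 -0.17 to 0.41, Tnfrsf11a -0.085 to 0.019, Tnfrsf12a -0.17 to 0.036. The cause was not tested. Depth limits the low members, since the standard errors of Tnfsf14, Tnfsf18 and Cd27 were 0.31, 0.30 and 0.35 on the log2 scale with 8 to 25 reads per library.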

Other observations

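The effect of the deletion was also compared between the 4 male and 2 female libraries, with a genotype by sex term in edgeR's quasi-likelihood test over all genes. None of the 38 members passed (0 at adjusted p under 0.05, 3 at unadjusted p under 0.05), against 5 and 892 of all 14866 genes. The 3 were Tnfsf10, Tnf and Tnfrsf21. Tnfsf10, which encodes TRAIL, had 7.88, 5.04 and 3.91 CPM in ecko skin, against 4.91, 5.18 and 7.60 CPM in controls, where ecko 1 lay above both male controls, ecko 2 lay between them and the female ecko 3 lay below the female control (difference of log2 fold changes, male minus female, 1.31, edgeR adjusted p = 0.796). With 1 female library per group the difference has no replicate in females.

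Relt, a receptor gene of the same superfamily whose symbol lies outside the rule used for the members, had 5.45, 5.81 and 5.26 CPM in ecko skin, against 5.08, 6.15 and 4.99 CPM in controls, a log2 fold change of 0.026 (SE 0.13, edgeR adjusted p = 0.955).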
